A study of Homo sapiens with 6 samples.

Results

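The AP-1 transcription factors described here are 10 genes of the FOS, JUN, ATF, BATF and small MAF families, namely FOS, FOSB, FOSL1, FOSL2, JUN, JUNB, JUND, ATF3, BATF3 and MAFF. They were chosen by name among the 60612 genes of the table, and all 10 were among the 18106 genes with enough counts to be tested. RNA of U87 cells was sequenced in 3 libraries with a scrambled control shRNA (NC) and in 3 libraries with an shRNA against PRMT6 (shPRMT6), a type I arginine methyltransferase that modifies histones and other proteins. The U87 line is established from a human glioblastoma, and both groups carried a lentiviral shRNA taken up with polybrene and were grown in DMEM with fetal bovine serum. Which of the study's PRMT6 hairpins was sequenced is not given in the sources used here, and the 3 shPRMT6 libraries were treated as replicates of 1 hairpin in 1 cell line. The study's methods call the libraries independent replicates.

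AP-1 is a dimer of basic leucine zipper proteins. JUN, JUNB and JUND can pair with each other or with FOS, FOSB, FOSL1 and FOSL2, whereas the FOS proteins need a partner from another family to bind DNA. The dimers bind TGACTCA, or TGACGTCA with partners of the ATF and CREB kind, and growth factor signalling through the MAP kinases raises both the transcription and the activity of the subunits. In glioblastoma, FOSL1 is known for its part in the mesenchymal state, and many genes of invasion, proteolysis and cytokine signalling are textbook AP-1 targets.

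Total counts ranged from 56388161 to 75887696 over the 6 libraries. The glioma line markers VIM, at 7988 CPM in NC and 7425 CPM in shPRMT6, and CD44, at 568 and 524 CPM, were abundant, where CPM is the TMM-scaled count relative to library size. Of the 10 glioma line markers 3 were called higher (S100A10, CHI3L1 and SOX9) and 1 lower (TNC), against 9.51% and 9.06% of all tested genes. The glial marker GFAP (0.318 and 0.521 CPM) and the stem cell marker SOX2 (0.195 and 0.215 CPM) were near 0. The 5 leukocyte markers summed to between 148 and 256 CPM in NC and between 144 and 316 CPM in shPRMT6, nearly all of it CD68, a lysosomal gene (215 and 203 CPM on average), while AIF1 and CD3E had no count in any library and PTPRC and CD14 at most 4. The summed neuronal markers ranged from 26.4 to 29.5 CPM in NC and from 23.4 to 27.5 CPM in shPRMT6. The summed endothelial markers ranged from 9.01 to 17.8 CPM and from 16.6 to 17.6 CPM. The summed epithelial markers ranged from 13.3 to 19.7 CPM in NC and from 3.60 to 9.69 CPM in shPRMT6. Of the 4 tested ones, 2 were called lower, CDH1 and KRT8, against 9.06% of all tested genes. Each call held in 1 of 6 fits without 1 library. CDH1 was near 0 (0.642 and 0.14 CPM), and KRT18 (8.11 and 2.72 CPM) was not called (adjusted p = 0.14, edgeR). The part of the epithelial markers in the results on AP-1 was not tested.

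PRMT6, the targeted gene, had raw counts of 522 in NC replicate 1, 606 in replicate 2 and 449 in replicate 3, against 227, 282 and 355 for the shPRMT6 replicates. The groups did not overlap. Its mean level was 8.17 ± 1.08 CPM in NC and 4.46 ± 0.844 CPM in shPRMT6 (SD, n = 3 each), a log2 fold change of -0.87 (SE 0.187, adjusted p = 0.0225, edgeR, quasi-likelihood test, Benjamini-Hochberg adjusted over all tested genes). The call was lost in the edgeR fit without NC replicate 1 (-0.77, adjusted p = 0.0613), without shPRMT6 replicate 1 (-0.73, adjusted p = 0.0588) and without shPRMT6 replicate 2 (-0.89, adjusted p = 0.0713).

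The promoters of the AP-1 genes themselves hold sites of the kind that AP-1 and ATF dimers bind, and the matches before the start are shown so that members with the same site can be set beside their values. RefSeq promoters on GRCh38.p14, from 250 bases before to 50 bases after each gene's start, were found for 8 of the 10 genes (not for FOSL1 and BATF3), with 2 windows each for ATF3 and MAFF, and were searched on both strands. Shares below count genes with a match in any of their windows, among 27305 genes. The palindrome TGACGTCA was found in JUND and MAFF and in 2.25% of all genes. The variant TGACATCA, read as TGATGTCA on the other strand, was found in JUN and ATF3 and in 3.18% of all genes. The canonical site, TGACTCA or TGAGTCA, was found in 6.05% of all genes, and among these 8 only in FOSL2, where it began 5 bases after the start. No CArG box, the site of serum response factor, was found in these windows of the 8 genes, while 1.6% of all genes held one. Sites farther from the start were not searched, so a CArG box there would have been missed. The matches are given 5′ to 3′ along the gene's strand with the motif in capitals.
JUN: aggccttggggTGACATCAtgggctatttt
ATF3: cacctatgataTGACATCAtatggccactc
JUND: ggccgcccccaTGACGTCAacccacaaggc
MAFF: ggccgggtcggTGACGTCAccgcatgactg

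The JUN window lies at chr1:58784096-58784125 on the minus strand, with the motif beginning 67 bases before the start. That of ATF3 lies at chr1:212565273-212565302 on the plus strand, 123 bases before the start. The JUND window is at chr19:18281804-18281833 on the minus strand (200 bases before the start), and the MAFF window at chr22:38201929-38201958 on the plus strand (54 bases before the start). These starts are those of RefSeq. The JUN and MAFF windows lie inside the gene positions given below, which come from GENCODE. Of the pair with TGACATCA, JUN was called higher and ATF3 was not called (log2 fold change 0.06), and the difference between them was not tested. A match is a description of these letters and not evidence of binding.

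Of the 10 AP-1 genes, JUN was higher and FOSL1 was lower after PRMT6 knockdown, and the other 8 did not pass an adjusted p of 0.05. For comparison, 18.6% of all tested genes were called, 9.51% higher and 9.06% lower, so that 1 of 10 in each direction was near the background. The median log2 fold change was -0.07 over the 10 genes and -0.01 over all genes tested. No AP-1 gene reached the study's own threshold, an absolute log2 fold change above 1 with an unadjusted p under 0.05, which 5.92% of all genes passed, 3.29% higher and 2.63% lower. JUN and FOSL1 were also the only members whose groups did not overlap, against 40.2% of all genes. In bulk RNA, a smaller share of cells with a transcript and less of it per cell cannot be told apart.

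**Figure D1:**
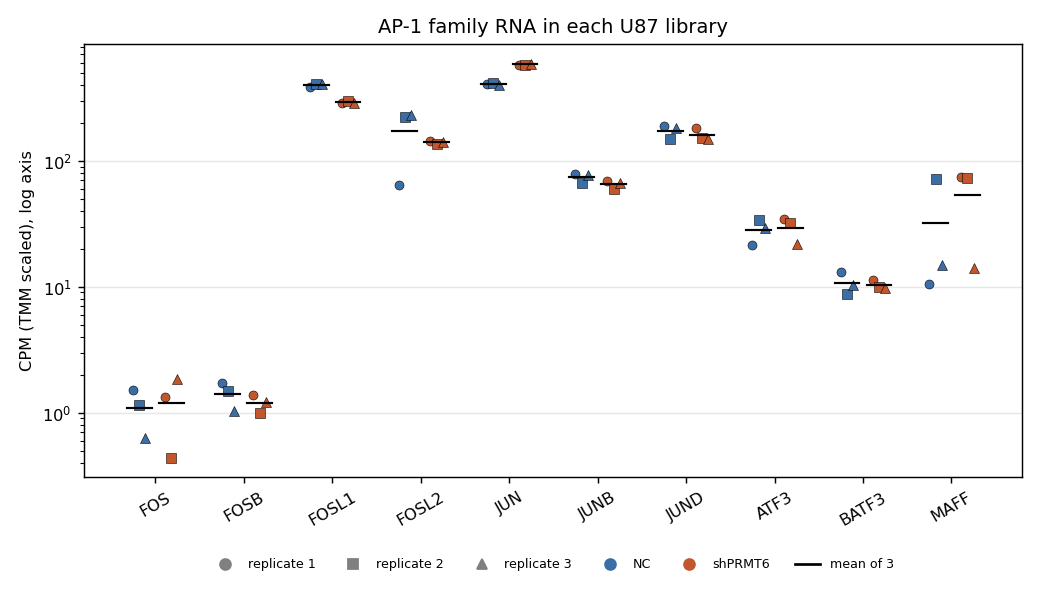
RNA level of the 10 AP-1 genes in each of the 6 U87 libraries, as TMM-scaled CPM on a log axis, with NC in blue, shPRMT6 in orange, 1 symbol per replicate number and a bar at the mean of 3. JUN and FOSL1 are the genes whose groups separate, FOSL2 has 1 low NC library at 64.6 CPM, and MAFF splits within both groups.

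JUN (ENSG00000177606, chromosome 1, 58780788 to 58784327, minus strand of GRCh38) encodes the founding JUN subunit, a strong activator that is phosphorylated by JNK. Its level was 411, 417 and 397 CPM in the NC replicates and 580, 576 and 591 CPM in the shPRMT6 replicates, each in the order 1, 2 and 3, which is kept below. Every shPRMT6 library lay above every NC library, and the spread within each group was far smaller than the step between them. The means were 408 ± 9.97 CPM and 582 ± 7.80 CPM (SD, n = 3 each), a 1.43-fold rise. The log2 fold change was 0.51 (SE 0.0467, 95% interval 0.40 to 0.62, adjusted p = 0.00148, edgeR, quasi-likelihood test, Benjamini-Hochberg adjusted). The call held in all 15 alternative fits, with adjusted p from 2.96e-36 in DESeq2 to 0.0195 with a replicate block.

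The genes whose levels over the 6 libraries were most like that of JUN, among 12594 others whose average log2 CPM was 1 or more, were GPR39, a zinc-sensing receptor (Pearson r = 0.9995), TMCC3 (r = 0.9993) and SRPX2, a secreted protein (r = 0.9993). This likeness rests on the step between the groups, and the points share libraries and depth. GPR39 rose by a log2 fold change of 0.39, TMCC3 by 1.10 and SRPX2 by 0.59.

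JUNB (ENSG00000171223, chromosome 19, 12791496 to 12793315, plus strand) encodes the JUN family member that often opposes JUN in growth control. Its level was 77.9, 66.2 and 77.7 CPM in the NC replicates and 69.2, 60.2 and 66.1 CPM in the shPRMT6 replicates. The groups overlapped, and replicate 2 was the lowest library in both. The log2 fold change was -0.18 (95% interval -0.40 to 0.04, adjusted p = 0.226, edgeR). Exons of JUNB overlap those of HOOK2 on the opposite strand, and 10.6% of its 75-base stretches are shared with HOOK2. The library kit named in the labels does not mark strand, so reads from the pair cannot be told apart there, and the JUNB values are uncertain to that extent.

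JUND (ENSG00000130522, chromosome 19, 18279760 to 18281622, minus strand), the JUN family gene that most cells express steadily, had 189, 149 and 182 CPM in the NC replicates and 183, 152 and 149 CPM in the shPRMT6 replicates. The groups overlapped, with 1 low NC library and 1 high shPRMT6 library. The log2 fold change was -0.10 (95% interval -0.39 to 0.18, adjusted p = 0.613, edgeR).

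FOSL1 (ENSG00000175592, chromosome 11, 65892049 to 65900573, minus strand) encodes FRA-1, a FOS protein without the long transactivation domain of FOS, which is stable under sustained ERK signalling. It had 389, 408 and 405 CPM in the NC replicates and 286, 298 and 290 CPM in the shPRMT6 replicates. All shPRMT6 libraries lay below all NC libraries. The means were 401 ± 10.3 CPM and 291 ± 6.19 CPM (SD, n = 3 each), 1.38-fold lower. FOSL1 had a log2 fold change of -0.46 (SE 0.0494, 95% interval -0.58 to -0.34, adjusted p = 0.00224, edgeR, quasi-likelihood test, Benjamini-Hochberg adjusted). It passed in all 15 alternative fits, with adjusted p up to 0.0212 under a replicate block. For JUN and FOSL1 alone, an exact two-sided permutation test of the 3 against 3 libraries gave p = 0.1 each, the smallest that this design allows.

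FOSL2 (ENSG00000075426, chromosome 2, 28392448 to 28417312, plus strand) encodes FRA-2, the closest relative of FRA-1. The NC libraries had 64.6, 224 and 230 CPM and the shPRMT6 libraries 144, 135 and 142 CPM. NC replicate 1 fell below every other library and the remaining NC libraries lay above all shPRMT6 libraries, so the NC values spanned 3.57-fold against 1.07-fold in shPRMT6. With all libraries the log2 fold change was -0.30 (SE 0.433, 95% interval -1.34 to 0.73, adjusted p = 0.685, edgeR). Without NC replicate 1 it was -0.70 and passed the threshold (adjusted p = 0.00408, edgeR), and without any one of the other 5 libraries it ranged from -0.32 to -0.04 and was not called. The call on FOSL2 therefore turned on 1 library, and the source of that library's low value was not tested.

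FOS and FOSB, the fast serum-induced members, had few counts in these cells. FOS (ENSG00000170345, chromosome 14, 75278774 to 75282230, plus strand) had 84, 88 and 39 counts in the NC replicates and 84, 27 and 125 counts in the shPRMT6 replicates. Its highest and lowest libraries were both shPRMT6 libraries. The log2 fold change of FOS was 0.14 (95% interval -1.21 to 1.48, adjusted p = 0.894, edgeR), and it ranged from -0.31 to 0.53 when 1 library was left out. FOSB (ENSG00000125740, chromosome 19, 45467995 to 45475179, plus strand) had 97, 113 and 64 counts in NC and 87, 61 and 82 counts in shPRMT6, with overlapping groups and a log2 fold change of -0.25 (95% interval -0.91 to 0.41, adjusted p = 0.590, edgeR). Both intervals span falls and rises, so the direction of change was not resolved for either gene.

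ATF3 (ENSG00000162772, chromosome 1, 212565334 to 212620777, plus strand), a stress-induced factor that pairs with JUN proteins and can repress, had 21.6, 33.7 and 29.2 CPM in the NC replicates and 34.2, 32.3 and 21.9 CPM in the shPRMT6 replicates. Each group held 1 low library, at 21.6 and 21.9 CPM, and the groups overlapped over nearly their whole range. The log2 fold change was 0.06 (95% interval -0.47 to 0.59, adjusted p = 0.878, edgeR). BATF3 (ENSG00000123685, chromosome 1, 212686418 to 212699985, minus strand), a short factor known from dendritic cell development, had 13.0, 8.71 and 10.3 CPM in NC and 11.3, 9.93 and 9.82 CPM in shPRMT6. The NC libraries spanned all of the shPRMT6 values, with a log2 fold change of -0.04 (95% interval -0.44 to 0.36, adjusted p = 0.888, edgeR).

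MAFF (ENSG00000185022, chromosome 22, 38200767 to 38216511, plus strand) encodes a small MAF protein, which has no transactivation domain of its own. Its level was 10.6, 71.1 and 14.8 CPM in the NC replicates and 73.8, 72.5 and 14.2 CPM in the shPRMT6 replicates. Both groups held low libraries between 10.6 and 14.8 CPM and high ones between 71.1 and 73.8 CPM, with 1 high library in NC and 2 in shPRMT6. The highest library exceeded the lowest 6.71-fold in NC and 5.18-fold in shPRMT6. The log2 fold change was 0.73 (SE 0.871, 95% interval -1.35 to 2.82, adjusted p = 0.621, edgeR), and it was not called in any fit without 1 library. It was 2.08 without NC replicate 2 and 1.19 without shPRMT6 replicate 3, against 0.32 and 0.39 without NC replicates 1 and 3 and 0.43 and 0.45 without shPRMT6 replicates 1 and 2.

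**Figure D2:**
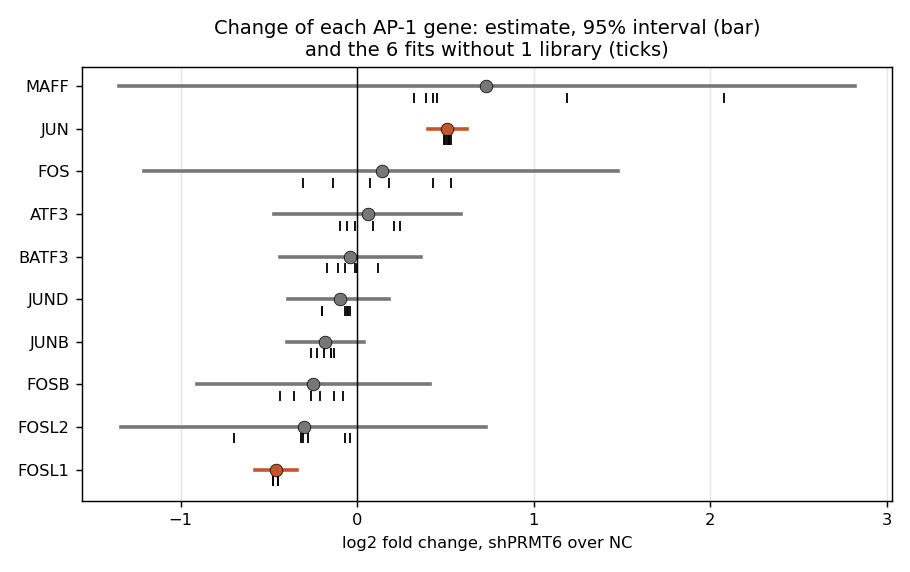
Log2 fold change of each AP-1 gene in shPRMT6 over NC, with the point at the edgeR estimate, the bar at its 95% interval and ticks at the 6 fits that leave out 1 library, in orange for an adjusted p under 0.05. JUN (0.51) and FOSL1 (-0.46) have narrow intervals away from 0, whereas the MAFF interval runs from -1.35 to 2.82.

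Uneven libraries were looked for across all genes after the FOSL2 and MAFF values had been seen. Among 10051 genes whose average log2 CPM was 3 or more, 321 (3.19%) had a highest library at least 3-fold above the lowest within a group, and these included 2 of the 8 AP-1 genes at that level. The same held for 2 of 10 dimer partners, MAFK and NFE2L2, and for 1 of 23 immediate early genes, KLF6. It also held for 1 of 25 genes listed upstream of AP-1, ELK4, and for 0 of 28 AP-1 target genes. The genes named here were chosen after their values were seen. NFE2L2, the antioxidant response factor that pairs with small MAF proteins, had 129, 29.9 and 116 CPM in NC and 127, 24.8 and 135 CPM in shPRMT6, so that replicate 2 was low in both groups. MAFK, another small MAF gene, had 9.35, 10.8 and 9.98 CPM in NC and 6.99, 25.3 and 7.07 CPM in shPRMT6. KLF6, a zinc finger factor of the early response, had 153, 37.2 and 138 CPM in NC and 206, 206 and 56.1 CPM in shPRMT6. ELK4, a ternary complex factor that binds with serum response factor, had 18.6, 30.8 and 23.8 CPM in NC and ranged from 3.57 in replicate 1 and 4.34 in replicate 3 to 25 CPM in replicate 2 of shPRMT6. A replicate 2 library stood apart from the rest of its group for 5 of these 6 genes, high for MAFF, MAFK and ELK4 and low for NFE2L2 and KLF6, shPRMT6 replicate 3 was low for MAFF and KLF6, and NC replicate 1 was low for FOSL2. What made these libraries differ was not tested.

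**Figure D3:**
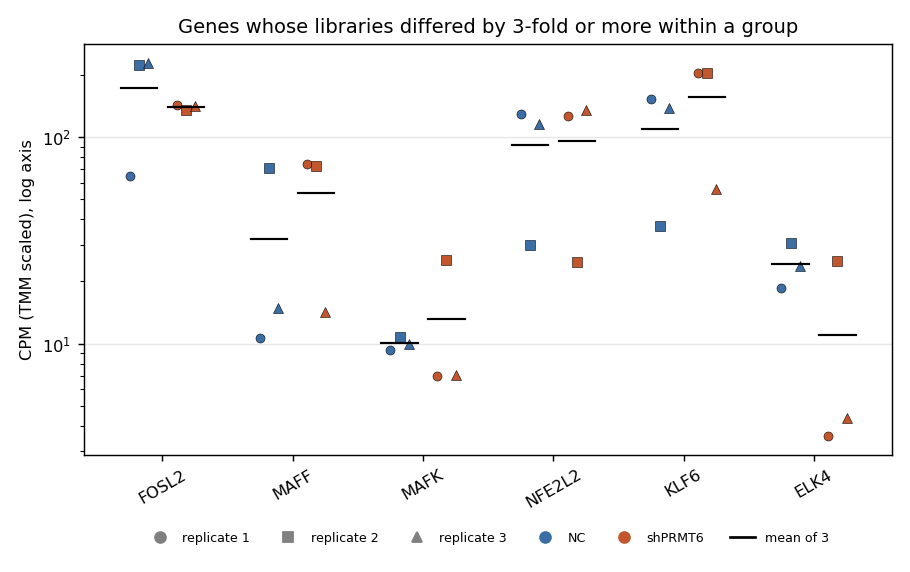
TMM-scaled CPM on a log axis for FOSL2 and MAFF and for MAFK, NFE2L2, KLF6 and ELK4 from the related lists, in each NC (blue) and shPRMT6 (orange) library with the mean of 3 as a bar. The library that stands apart is NC replicate 1 for FOSL2, replicate 2 of both groups for NFE2L2 and shPRMT6 replicate 2 for MAFK and ELK4.

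Levels of different genes were compared on the FPKM scale, which accounts for transcript length. In NC, FOSL1 was the most abundant AP-1 transcript at 179 ± 6.03 FPKM, followed by JUN at 105 ± 2.02, JUND at 75.6 ± 9.26, JUNB at 34.0 ± 3.09 and FOSL2 at 20.4 ± 11.2 FPKM (SD, n = 3 each). No library ranges overlapped between neighbours down to ATF3 at 5.87 ± 1.31 FPKM. The range of MAFF (4.82 ± 5.07 FPKM) overlapped those of ATF3 and BATF3 (3.49 ± 0.686 FPKM), and FOS (0.277 ± 0.117 FPKM) overlapped FOSB (0.210 ± 0.0530 FPKM). In shPRMT6, JUN stood first at 151 ± 2.29 FPKM and FOSL1 second at 131 ± 2.67 FPKM, again without overlap. Below them JUND, JUNB and FOSL2 kept their order, at 70.8 ± 8.08, 30.1 ± 2.13 and 16.6 ± 0.589 FPKM.

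The ratio of JUN to FOSL1 on the FPKM scale was 0.612, 0.591 and 0.569 in the NC replicates and 1.18, 1.12 and 1.18 in the shPRMT6 replicates. On this scale FOSL1 was thus the higher of the pair in every NC library and JUN in every shPRMT6 library. In CPM, which does not account for length, the NC replicates had 411, 417 and 397 for JUN and 389, 408 and 405 for FOSL1. The order of the pair in NC therefore depends on the transcript lengths behind the deposited FPKM values. Within the JUN family, JUN made up 47.1% to 53.0% of the summed FPKM in NC and 57.4% to 61.5% in shPRMT6, while the mean share of JUND went from 35.1% to 28.0% and that of JUNB from 15.8% to 11.9%. Within the FOS family, FOSL1 held 89.8% ± 4.89 in NC and 88.5% ± 0.668 in shPRMT6, and these ranges overlapped. FOS and FOSB together stayed a trace, with no share above 0.324% in any library. The summed FOS family lay between 180.0 and 210.0 FPKM in NC and between 146 and 150.0 FPKM in shPRMT6, whereas the summed JUN family lay between 203 and 222 FPKM in NC and between 244 and 263 FPKM in shPRMT6.

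**Figure D4:**
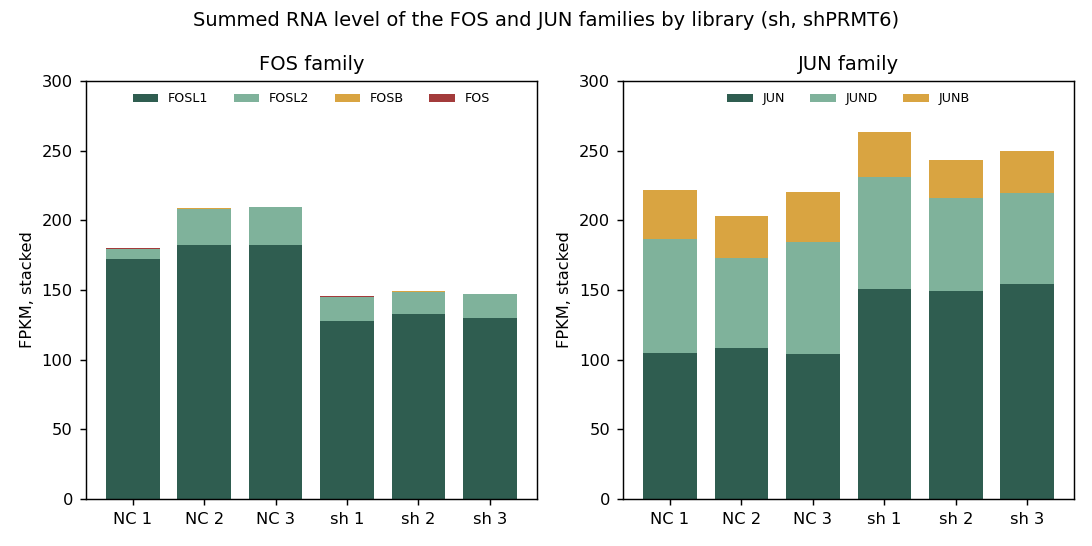
Stacked FPKM of the FOS family (left) and the JUN family (right) in each library, with NC and shPRMT6 (sh) replicates side by side and the axis starting at 0. FOSL1 makes up 86.8% to 95.5% of the FOS family, and the JUN segment is taller in all 3 shPRMT6 libraries (149 to 154 FPKM) than in NC (104 to 108 FPKM).

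The dimer partners of AP-1 outside the 10 genes held 1 called gene. Of 16 listed ATF, BATF, MAF, NFE2L and BACH genes and their like, 13 were tested, 1 was called higher (7.69%, against 9.51% of all genes) and 0 lower (against 9.06%) by edgeR, with a median log2 fold change of 0.05. ATF7, a JUN partner of the ATF2 kind, was the one called, with a mean of 45.0 CPM in NC and 57.7 CPM in shPRMT6 (log2 fold change 0.36, adjusted p = 0.0317, edgeR, quasi-likelihood test, Benjamini-Hochberg adjusted). Its call held without NC replicate 2 (0.42, adjusted p = 0.0201, edgeR) and was lost without any one of the other 5 libraries (adjusted p from 0.0587 to 0.111, edgeR). BATF, BACH2 and MAF had too few counts to be tested.

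A list of genes upstream of AP-1 held more called falls than rises. It holds genes of the MAP kinase cascade and its phosphatases, the transcription factor genes SRF, ELK1, ELK3 and ELK4, and COP1, DET1, FBXW7, ITCH and RNF187. Of 32 genes, all tested, 8 were lower and 2 higher by edgeR, that is 25% and 6.25%, against 9.06% and 9.51% of all genes, with a median log2 fold change of -0.12. The lower genes were MAPK8, which encodes the kinase JNK1 that phosphorylates JUN, MAP2K1 and MAP2K2, which encode the kinases that activate ERK, the downstream kinase genes RPS6KA1 and RPS6KA5, the phosphatase genes DUSP8 and DUSP10, and RNF187, which encodes a JUN coactivator. RPS6KA1 went from 7.76 ± 1.04 to 4.01 ± 0.269 CPM (log2 fold change -0.95, adjusted p = 0.00779, edgeR) and MAP2K2 from 174 ± 10.7 to 125 ± 8.23 CPM (-0.47, adjusted p = 0.00845). MAP2K1 went from 196 ± 4.52 to 158 ± 2.00 CPM (-0.31, adjusted p = 0.00873, edgeR). RNF187 went from 304 ± 27.1 to 239 ± 6.40 CPM (-0.35, adjusted p = 0.0238, edgeR), a call that held without NC replicate 2 (adjusted p = 0.0101) and was lost without any one of the other 5 libraries (adjusted p from 0.0504 to 0.0918, edgeR). The rises were in genes of phosphatases that inactivate ERK, with DUSP5 at 70.4 ± 5.08 and 101 ± 5.23 CPM (0.52, adjusted p = 0.00634, edgeR) and DUSP6 at 177 ± 5.31 and 284 ± 50.2 CPM (0.68, adjusted p = 0.0121, edgeR). The DUSP6 call was lost without NC replicate 3 (0.66, adjusted p = 0.0513, edgeR). Of the 6 fits without 1 library, the call on MAPK8 held in 2, on RPS6KA5 in 1, on DUSP10 in 1 and on DUSP8 in 0, and the number of called genes in the list was 4 to 8 instead of 10. Farthest above 0 in the list was MAPK14, the gene of the stress kinase p38α, which was named after its values were seen. It had 24.7, 64.4 and 22.4 CPM in NC and 78.3, 89.3 and 81.6 CPM in shPRMT6, without overlap, but was not called (1.16, adjusted p = 0.0967, edgeR) except without NC replicate 2 (1.81, adjusted p = 0.00132, edgeR).

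The other immediate early genes, which are induced with FOS and JUN, held 3 called genes. Of 30 listed genes 29 were tested (EGR4 had no count), with 2 higher (6.90%, against 9.51% of all genes), 1 lower (3.45%, against 9.06%) and a median log2 fold change of -0.10. IER3, an early response gene linked to survival, rose from 474 ± 13.9 to 656 ± 2.60 CPM (0.47, adjusted p = 0.00187, edgeR). EGR1, a zinc finger factor induced through serum response factor, had 32.9, 34.0 and 32.2 CPM in NC and 39.6, 40.8 and 39.0 CPM in shPRMT6 (0.27, adjusted p = 0.0377, edgeR), a call held without NC replicate 2 (adjusted p = 0.0453) and lost without any one of the other 5 libraries (adjusted p from 0.0779 to 0.134, edgeR). NFKBIZ, an atypical IκB gene, had 226 ± 36.8 and 162 ± 6.84 CPM (-0.49, adjusted p = 0.0375, edgeR), held without NC replicate 1 (adjusted p = 0.00593) and lost without any one of the other 5 (adjusted p from 0.0802 to 0.115, edgeR).

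Most textbook targets of AP-1 were called, in both directions. Of 35 genes 32 were tested, and 16 (50%) were lower and 7 (21.9%) higher by edgeR, against 9.06% and 9.51% of all tested genes. The median log2 fold change of the tested targets was -0.36. Among the 5731 genes whose average log2 CPM was 5 or more, where most targets lie, 30.4% were called, 15.2% lower and 15.2% higher, and 14 and 6 of the 26 targets at that level were called. MMP3, CSF2, CCND1, SERPINB2 and AXL were known to be lower from earlier results of these same samples, so their direction is not independent evidence. Of the 27 tested targets without them, 11 were lower and 7 higher, with a median of -0.20. The whole list was chosen with earlier results of these data known, so these counts are not independent evidence either.

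**Figure D5:**
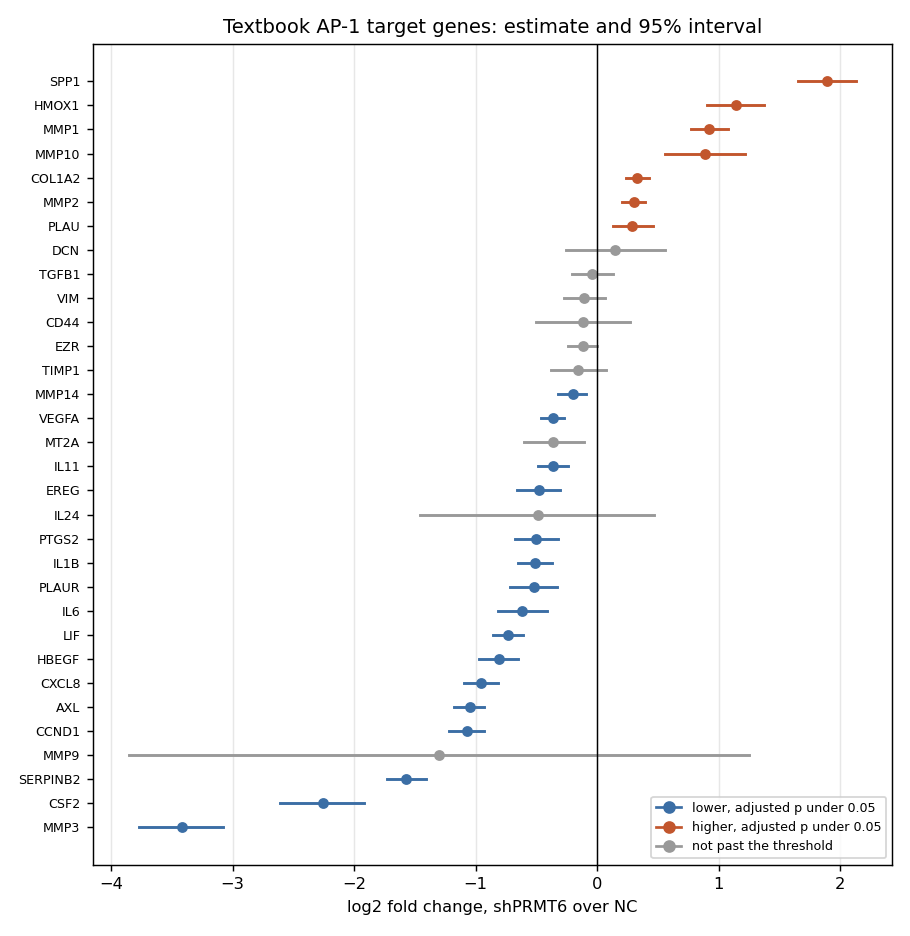
Log2 fold change of the 32 tested AP-1 target genes in shPRMT6 over NC, with points at the edgeR estimate and bars at the 95% interval, in blue where lower and orange where higher at an adjusted p under 0.05, and grey otherwise. The list runs from SPP1 at 1.89 down to MMP3 at -3.42, with 16 genes lower and 7 higher.

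MMP3, a stromelysin that cleaves matrix, fell from 44.2, 36.9 and 38.4 CPM in the NC replicates to 3.38, 4.34 and 3.41 CPM in the shPRMT6 replicates (log2 fold change -3.42, adjusted p = 0.000211, edgeR). SERPINB2, an inhibitor of plasminogen activators, fell from 662 ± 47.0 to 223 ± 7.09 CPM (-1.57, adjusted p = 0.000211, edgeR). CCND1, which encodes cyclin D1, fell from 1121 ± 57.2 to 532 ± 23.1 CPM (-1.07, adjusted p = 0.000357, edgeR), and AXL, a receptor tyrosine kinase gene, from 365 ± 8.66 to 176 ± 4.92 CPM (-1.05, adjusted p = 0.000264, edgeR). The cytokine genes IL6, CXCL8, IL11, IL1B, LIF and CSF2, the growth factor genes HBEGF, EREG and VEGFA, and PTGS2, MMP14 and PLAUR made up the rest of the lower genes.

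The 7 genes that rose encode proteases, matrix proteins and a stress enzyme. SPP1, which encodes osteopontin, rose from 68.5, 60.7 and 74.1 CPM in the NC replicates to 235, 276 and 243 CPM in the shPRMT6 replicates (1.89, adjusted p = 0.000308, edgeR). MMP1, the interstitial collagenase, rose from 50.6 ± 2.42 to 96.1 ± 2.37 CPM (0.92, adjusted p = 0.000658, edgeR), opposite to MMP3. HMOX1, a haem-degrading enzyme of the stress response, rose from between 39.7 and 50.5 CPM in NC to between 97.3 and 102 CPM in shPRMT6 (1.14, adjusted p = 0.00119, edgeR), and the collagen gene COL1A2 from 1071 ± 13.4 to 1348 ± 2.37 CPM (0.33, adjusted p = 0.00342, edgeR). MMP2, MMP10 and PLAU were also higher. The calls on PLAU and MMP14 each held in 2 of the 6 fits without 1 library, while AREG, CCL2 and MMP13 had too few counts to be tested. Of the 75-base stretches of SERPINB2, 17.4% are shared with SERPINB10, and of those of PLAU 16.6% are shared with C10orf55, IL6 13.8% with AC073072.1 and CCND1 7.30% with LTO1, so that these values are uncertain to that extent.

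The canonical AP-1 site was found in the promoters of 5 of the 23 targets with a RefSeq window, CXCL8, IL11, PLAUR, MT2A and EZR, against the 6.05% of all genes given above. Genes can become textbook targets through such sites, so this share is not independent evidence. The 5 promoters are shown because they carry the site that AP-1 dimers bind near the start of a measured target, again with the motif in capitals.
CXCL8: aggaagtgtgaTGACTCAggtttgccctga
IL11: ggcagggagggTGAGTCAggatgtgtcagg
PLAUR: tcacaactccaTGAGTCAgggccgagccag
MT2A: ggagccgcaagTGACTCAgcgcggggcgtg
EZR: gggcggggcgcTGACTCAcccgggcccggg

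The windows lie at chr4:73740421-73740450 on the plus strand for CXCL8, chr19:55370541-55370570 on the minus strand for IL11, and chr19:43670337-43670366 on the minus strand for PLAUR. Those of MT2A and EZR lie at chr16:56608469-56608498 on the plus strand and at chr6:158818273-158818302 on the minus strand. The starts are again those of RefSeq, and the PLAUR, MT2A and EZR windows lie inside the GENCODE bounds of their genes. CXCL8, the chemokine interleukin 8, fell from 2307 ± 134 to 1188 ± 43.1 CPM (-0.96, adjusted p = 0.000504, edgeR), and PLAUR, the urokinase receptor, from 443 ± 43.5 to 308 ± 13.0 CPM (-0.52, adjusted p = 0.00783, edgeR). IL11, a cytokine of the IL6 family, fell from 125 ± 3.09 to 97.2 ± 0.932 CPM (-0.36, adjusted p = 0.00594, edgeR). MT2A, a metallothionein gene, and EZR, the gene of the membrane linker ezrin, had log2 fold changes of -0.36 and -0.12 and were not called (adjusted p = 0.0546 and 0.139, edgeR). Of the 5, 3 were called lower, beside 9.06% of all tested genes and 16 of the 32 tested targets, which include genes without a window. The targets without a window, CCL2, CCND1, COL1A2, DCN, HMOX1, LIF, MMP1, MMP2, MMP3, MMP9, MMP13 and VEGFA, were not searched. Whether targets with and without the site differ was not tested.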

How the data were processed

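RNA from 3 NC and 3 shPRMT6 libraries was compared, grouped by the labels. The authors deposited raw counts per gene, not normalized, and FPKM values scaled to transcript length and library size (0.0001 where the count is 0). The submitters' processing notes name HISAT2, HTSeq 0.13.5 and GRCh38, while the counting annotation and strand setting are not given in the sources used here. The labels name Trizol for extraction and the methods an RNeasy kit.

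Counts were tested with edgeR 4.0.16 (TMM scaling, its filter on low counts, quasi-likelihood test, Benjamini-Hochberg adjustment over 18106 genes) in R 4.3.3. Alternatives used DESeq2 1.42.0, limma 3.58.1 on log2(FPKM + 1) and log2(FPKM + 0.1), other scalings and filters, a replicate block and each library left out. The programs were tested on simulated counts. Positions came from GENCODE 29 on GRCh38 and promoters from RefSeq on GRCh38.p14, read with Python 3.11.15.

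Of each related list, up to 4 genes called in each direction with the smallest p were named, and for the AP-1 gene with the smallest p the 3 genes most like it. Others are named as list members, for a promoter match or as stated. The values of 1 target gene are not reported here, and it was taken out of the target list and its counts. The members and lists were chosen with earlier results of these data known. No pair of replicates was a duplicate: chi-square per degree of freedom was 48.2 to 78.4.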

Additional observations from a re-analysis of the deposited data

How the results depend on the processing

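JUN and FOSL1 kept their direction and their call in all 15 alternatives each. The 3362 genes called became 5782 with DESeq2, 1858 with a replicate block, 1072 under the study's threshold, and 1755 to 3183 with 1 library left out. DESeq2 made more false calls than edgeR in simulated counts. Those counts were drawn with the spread that edgeR estimated, so they cannot decide how many DESeq2 calls here are false. Under the study's threshold 0 AP-1 genes were higher and 0 lower, and the count of lower AP-1 genes was 1 to 2 with 1 library left out. Partners called went from 1 to 3 with DESeq2, to 0 with the replicate block, to 0 with unfiltered limma on log2(FPKM + 1), and to 0 to 3 with 1 library left out. The upstream genes called, 10, became 6 with unfiltered limma on log2(FPKM + 1) and 4 to 8 with 1 library left out. The immediate early genes called, 3, became 10 with DESeq2, 5 with limma on log2(FPKM + 1), 5 on log2(FPKM + 0.1), and 1 to 3 with 1 library left out. Targets called were 21 to 25 over the alternatives, against 23.

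With 1 library left out, log2 fold changes ranged from -0.31 to 0.53 for FOS, -0.44 to -0.08 for FOSB, -0.70 to -0.04 for FOSL2, -0.26 to -0.13 for JUNB, -0.20 to -0.04 for JUND, 0.32 to 2.08 for MAFF, -0.10 to 0.24 for ATF3, -0.17 to 0.12 for BATF3, and -1.0 to -0.73 for PRMT6. The replicate block gave -0.01 for FOS and -0.88 for PRMT6 (adjusted p = 0.0803, edgeR), and limma without a filter gave -0.47 for PRMT6 (adjusted p = 0.0578). Over all tested genes, deviations of same-numbered libraries from their group means correlated at -0.0248, -0.0171 and -0.0301. Of the 6 libraries, 0 correlated best with their own number. Whether same-numbered libraries were handled together is not given in the sources used here. A correlation over all genes cannot decide it for single genes. FOS and FOSB lay under the mean FPKM of 1 that the filtered limma fits require and got no value there. Of the 21 genes outside the family named for the smallest p in their list or for likeness to JUN, 5 changed call in some alternative. These were ATF7, DUSP6, EGR1, NFKBIZ and RNF187, and 0 of the 21 changed direction. Genes named for other reasons are not in this count. Calls on several of them also changed, among them MAPK8, RPS6KA5, DUSP8, DUSP10, PLAU, MMP14, CDH1 and KRT8, as given above. Where no cause is given, the cause was not tested. FOS and FOSB had 27 to 125 counts per library. How far counting or the spread between libraries limits their estimates was not tested.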
